A study of Mus musculus with 54 samples.

Results

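The 10 genes described here, kinases and cyclins that drive the meiotic divisions, were followed by symbol through 4 mouse genotypes and 3 testis preparations. They were chosen by symbol for their role, and make up 10 of the 23284 genes in the count tables: the A- and B-type cyclins *Ccna1*, *Ccna2*, *Ccnb1* and *Ccnb2*, the cyclin-dependent kinases *Cdk1* and *Cdk2*, the phosphatase *Cdc25c*, and the Polo and Aurora kinases *Plk1*, *Aurkb* and *Aurkc*. All 10 were present in both tables and all 10 passed the low-count filter in every comparison. A cyclin-dependent kinase is active only when bound to a cyclin, and the *Cdk1* and cyclin B complex, once *Cdc25c* removes inhibitory phosphates from the kinase, carries a cell into division. In the male germ line spermatocytes pass a long meiotic prophase, divide without an S phase between the meiotic divisions and become haploid round spermatids, which no longer divide. Many transcripts made in germ cells are stored and translated later, so a transcript level is not a level of protein or of kinase activity.

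The mice were 3-month-old C57BL/6 males of the genotypes WT, CTCF HET (*Ctcf*+/-), BORIS KO (Boris-/-) and CM (*Ctcf*+/-Boris-/-, the compound mutant named DKO in the sample labels). CTCF is a zinc-finger DNA-binding protein found in most cells, and BORIS, encoded by *Ctcfl*, is its testis paralogue. BORIS KO and CM thus share the loss of BORIS, and CTCF HET and CM share the loss of 1 *Ctcf* allele. Whole testis here means a germ-cell-enriched suspension with 4 mice pooled in each preparation, sequenced after depletion of ribosomal RNA, with 3 libraries per genotype. Round spermatids and spermatocytes were purified by elutriation and cell sorting, with spermatid preparations of higher stated purity than spermatocyte ones, and were sequenced from polyA RNA, with 3 libraries per genotype except 2 for WT spermatocytes. CTCF, BORIS, RNA polymerase II (Pol2) and trimethylated histone H3 lysine 4 (H3K4me3, a mark of active promoters) were mapped in WT testis, and CTCF, Pol2 and H3K4me3 in CM testis.

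Whole testis libraries held 10437683 to 42055813 counts. Those of round spermatids held 47740650 to 98545423 and those of spermatocytes 53337530 to 88946702. The 10 genes together took between 0.0495 and 0.116% of these counts. Levels are given as CPM, the share of a library's counts scaled to a common total, after scaling by the TMM method, which sets libraries to a common composition, separately for whole testis and for the purified cells. *Ctcf* stood at 39.9 to 47.0 CPM in WT whole testis and at 24.0 to 27.4 CPM in CM whole testis. The CM libraries of purified cells did not share that reduction of *Ctcf*, with 39.5 to 172 CPM against 29.4 to 48.7 CPM in WT for round spermatids, and 33.0 to 85.9 against 33.3 and 35.2 CPM for spermatocytes. Nor did the CTCF HET spermatocytes, with 32.3 to 52.4 CPM, while CTCF HET round spermatids had 21.6 to 33.4 CPM. *Ctcfl* was not at 0 in all libraries lacking BORIS, with 1.97 to 2.39 CPM in BORIS KO against 2.84 to 5.12 CPM in WT round spermatids. Directions drawn from purified cells below therefore refer to libraries as labelled. CTCF HET spermatocyte libraries had a count in 12018 to 13406 genes, against 17631 and 17683 in WT, and CM round spermatid libraries in 14932 to 16670 against 17504 to 17985.

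The gene starts were compared with the 7 deposited peak lists in the mm9 build, with the GENCODE vM1 annotation. A peak counted for a gene when it lay within 1 kb of an annotated start, and 21897 genes of the tables had such a start. The WT BORIS list held a promoter peak for 6 of the 10 genes, namely *Ccna2*, *Ccnb2*, *Cdk1*, *Cdc25c*, *Plk1* and *Aurkb*, against 13.8% of all genes. The WT CTCF list held one for 3 of 10, *Ccna2*, *Cdk1* and *Aurkb*, against 27.2% of all genes, and each of these also had a BORIS peak. None of the 10 had a promoter peak in the CM CTCF list, which held one for 9.60% of all genes. Of all genes with a WT CTCF promoter peak, 36.3% had it overlapped by a CM CTCF peak. *Ccnb1*, *Cdk2*, *Ccna1* and *Aurkc* had neither a CTCF nor a BORIS peak at the promoter.

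The BORIS peaks of the 6 genes lay above 7.06% to 65.7% of the peaks of that list by height. At *Cdk1* (chr10:68799383-68815686, minus strand) the BORIS peak at chr10:68815622-68815806 had its summit 32 bases before the nearest annotated start and a height of 114, above 65.7% of the list. The CTCF peak there, at chr10:68815251-68815815, had a height of 116, above 8.89% of the WT CTCF list. At *Ccna2* (chr3:36463788-36471072, minus strand) there was a CTCF peak of height 795 (above 61.5% of its list) at chr3:36470365-36471319 and a BORIS peak of height 65 (36.6%) at chr3:36470862-36470986. At *Aurkb* (chr11:68859149-68865166, plus strand) a CTCF peak of height 110 (7.74%) and a BORIS peak of height 54 (25.8%) had summits 16 bases after and 10 bases before a start. *Ccnb2* (chr9:70255496-70269361, minus strand) had a BORIS peak of height 63 (34.3%) with its summit 12 bases after the start. Its CTCF peak lay inside the gene, 4993 bases after the start, and this one had a counterpart in the CM list. At *Cdc25c* the BORIS peak had a height of 85 (51.2%) and its summit 174 bases before the start. *Plk1* (chr7:129302951-129313389, plus strand) had the lowest of the BORIS peaks, of height 33 (7.06%), 31 bases after the start. Heights carry no replicate error, since each list is a single set of peaks, and heights or ranks of different lists were not tested against each other.

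The bases just before the start are shown for 4 of the genes in which the BORIS peak reached into them, in mm9 and on the strand of the gene, from 150 bases before the annotated start to the base before it. For *Plk1* the start is the RefSeq one, 2 bases before that of GENCODE. Capitals mark the letters CCAAT (the core bound by NF-Y), TTTGAA or TTCGAA (the cell cycle genes homology region of mitotic promoters) and AACTG or AACGG (a MYB core) on either strand. In *Aurkb* the matches to AACTG and TTTGAA overlap. The windows are chr9:70269362-70269511, chr10:68815687-68815836, chr7:129302799-129302948 and chr11:68858999-68859148 in the order below. The *Plk1* window also holds part of an exon of *Gm15489*, a noncoding RNA annotated on the opposite strand.
Ccnb2: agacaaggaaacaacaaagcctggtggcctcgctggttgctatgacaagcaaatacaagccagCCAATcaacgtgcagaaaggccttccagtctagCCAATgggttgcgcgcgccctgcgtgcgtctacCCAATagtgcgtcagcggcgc
Cdk1: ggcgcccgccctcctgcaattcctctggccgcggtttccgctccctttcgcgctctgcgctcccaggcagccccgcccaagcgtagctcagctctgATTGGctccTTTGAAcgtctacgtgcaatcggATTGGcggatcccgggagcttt
Plk1: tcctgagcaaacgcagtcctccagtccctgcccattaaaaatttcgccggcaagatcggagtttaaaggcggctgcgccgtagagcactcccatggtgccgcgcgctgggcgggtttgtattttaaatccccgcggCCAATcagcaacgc
Aurkb: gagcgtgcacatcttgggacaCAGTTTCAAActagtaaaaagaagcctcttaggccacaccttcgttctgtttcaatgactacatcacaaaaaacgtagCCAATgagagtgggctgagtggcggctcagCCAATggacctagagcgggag
CCAAT stood 3 times before the start of *Ccnb2*, with first bases at -87, -54 and -21, and 2 times on the opposite strand in *Cdk1*, where a TTTGAA lay between them at -45.

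In windows from 250 bases before to 50 bases after the outermost start, CCAAT was found on either strand in 9 of the 10 genes, all but *Ccna2*, and in 38.2% of all 21897 genes. TTTGAA or TTCGAA was found in 5 of 10, *Ccnb2*, *Cdk1*, *Cdc25c*, *Plk1* and *Aurkb*, and in 17.8% of all genes. The same 5 genes held both elements, against 7.48% of all genes, and all 5 were among the 6 with a BORIS promoter peak. How often promoters with both elements have a BORIS peak among all genes was not counted, so no link is drawn. AACTG was found in 5 of 10 against 42.3%, and AACGG in 1 of 10, *Ccnb1*, against 18.8%. A match of letters is not a bound site. The outermost start of *Ccna2* lies upstream of its BORIS summit, so that its window covers other bases than those under the peak.

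Pol2 and H3K4me3 peaks stood at nearly all of these promoters. The WT Pol2 list held a promoter peak for 9 of 10 genes (40.2% of all genes), and the WT H3K4me3 list for the same 9 (52.6%). *Aurkc* (chr7:6948154-6955656, plus strand) was the exception and had no peak of any list within 10 kb. In CM testis 8 of 10 genes had a Pol2 promoter peak (47.4% of all genes) and 9 of 10 an H3K4me3 peak (57.4%). Besides *Aurkc*, the gene without a Pol2 promoter peak in CM was *Plk1*, whose WT Pol2 peak had a score of 89.4, above 32.0% of its list. Of all genes with a WT Pol2 promoter peak, 96.2% had it overlapped by a CM peak. The H3K4me3 peak of *Plk1* was present in both lists. Chromatin immunoprecipitation was done on whole testis, so a peak cannot be assigned to a cell type.

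**Figure D1:**
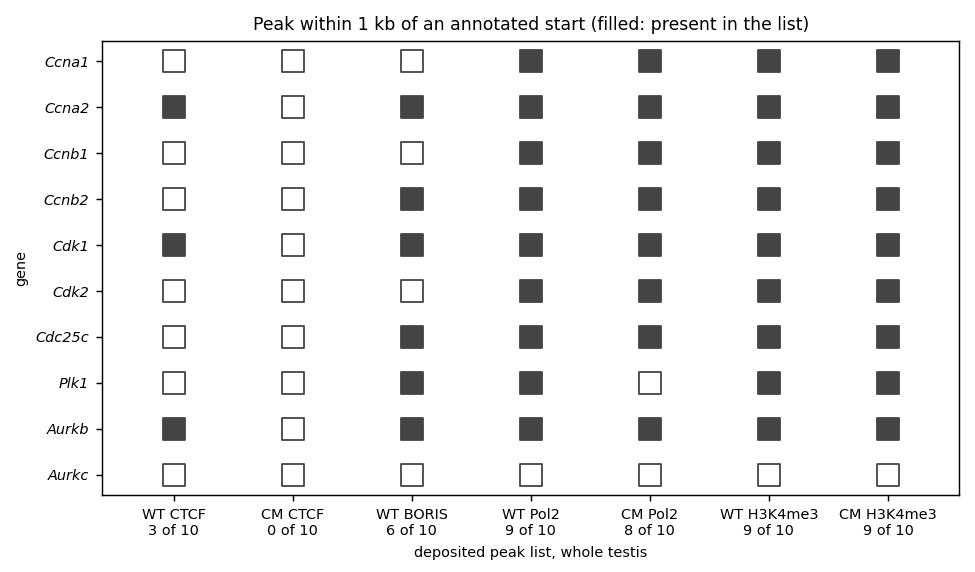
Presence (filled) or absence (open) of a peak within 1 kb of an annotated start for each of the 10 genes (vertical axis) in the 7 whole testis peak lists (horizontal axis). The plot has 6 genes filled for WT BORIS, 3 for WT CTCF and none for CM CTCF, while Aurkc is open throughout.

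Levels differed widely among the 10 genes in WT. Per kb of the longest coding transcript, *Ccna1*, a germ-line A-type cyclin needed for the first meiotic division of males, was the highest in whole testis at 140 ± 15.2 CPM per kb (SD, n = 3). *Ccnb2* followed at 103 ± 15.2 and *Plk1* at 68.8 ± 7.92 CPM per kb. *Ccna2*, the A-type cyclin of dividing somatic cells and spermatogonia, was the lowest at 2.43 ± 0.498 CPM per kb. The order of the remaining genes was *Ccnb1* at 34.1, *Cdk2* at 22.6, *Aurkc* at 19.2, *Cdc25c* at 15.2, *Cdk1* at 14.0 and *Aurkb* at 7.30 CPM per kb. Among these neighbours *Cdc25c* and *Cdk1* lay within their spread, with SDs of 2.16 and 0.655 CPM per kb. In round spermatids *Ccnb2* was the highest at 229 ± 15.6 CPM per kb, followed by *Ccna1* at 167 ± 11.4 and *Plk1* at 143 ± 17.7. *Aurkc* at 17.2 ± 1.26 and *Ccnb1* at 17.0 ± 1.66 CPM per kb lay within their spread, above *Cdc25c* at 14.6, *Cdk1* at 6.38 and *Ccna2* at 4.05 CPM per kb. *Cdk2* at 2.34 ± 0.299 and *Aurkb* at 2.32 ± 0.386 CPM per kb were the lowest there and could not be ordered. In spermatocytes (n = 2) *Ccna1* and *Ccnb2* led at 134 ± 3.24 and 113 ± 3.26 CPM per kb, then *Cdk2* at 57.1 ± 4.11 and *Plk1* at 47.9 ± 1.96. *Aurkc* at 31.5, *Cdk1* at 20.3, *Aurkb* at 9.49, *Ccnb1* at 4.68 and *Cdc25c* at 1.96 CPM per kb came next, and *Ccna2* was the lowest at 0.970 ± 0.134 CPM per kb.

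Which of these transcripts belong to the dividing and which to the haploid stage was asked by setting round spermatids against spermatocytes. In WT all 10 genes were called at an adjusted p under 0.05 by edgeR, 6 higher and 4 lower in round spermatids, where 70.0% of all tested genes were called. In BORIS KO, with its own libraries, the call and direction were the same for each of the 10, where 83.3% of genes were called. With so many genes called, a call says little about a single gene, and the sizes below carry the description. Whether less RNA per cell or fewer cells of a type lay behind a difference cannot be told apart in bulk samples. The summed level of 8 spermatocyte marker genes was 4182 to 4806 CPM in WT round spermatids and 7295 to 8390 CPM in WT spermatocytes, and that of 7 round spermatid markers was 1524 to 1607 against 350 and 385 CPM.

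All 4 cyclins were higher in round spermatids. *Ccnb1*, the cyclin B that carries *Cdk1* into division, had 46.8, 40.9 and 38.9 CPM in WT round spermatids and 11.2 and 12.1 CPM in WT spermatocytes, a log2 difference of 1.89 ± 0.14 (SE, adjusted p = 1.38e-05). *Ccnb2*, its paralogue, had 326, 373 and 359 CPM against 170 and 177 CPM, a log2 difference of 1.05 ± 0.10 (adjusted p = 5.45e-05). Both B-type cyclins were without overlap between the cell types, as were all 10 genes. Of these, 6 lay above and 4 below, beside 40.2% and 41.7% of all tested genes. *Ccna2* had 10.1, 12.1 and 13.8 CPM against 3.15 and 2.59 CPM, a log2 difference of 2.09 ± 0.21 (adjusted p = 8.63e-05). The summed level of 9 spermatogonial markers was also higher, at 25.4 to 32.9 CPM in WT round spermatids against 6.62 and 6.68 CPM in WT spermatocytes. Of 8 such markers tested, 6 were called higher and 0 lower, where 70.0% of all genes were called. Their part in the level of *Ccna2* was not tested. *Ccna1* differed least, with 282, 253 and 248 CPM against 206 and 213 CPM, a log2 difference of 0.35 ± 0.09 (adjusted p = 0.0118). That call was lost with all genotypes in one fit (adjusted p = 0.231) and without spermatocyte replicate 1 (0.102) or 2 (0.0728).

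The kinases split. *Cdk2*, which sits at telomeres and crossover sites of meiotic chromosomes, had 5.82, 4.90 and 6.34 CPM in WT round spermatids and 132 and 146 CPM in WT spermatocytes. This was the largest difference among the 10 genes, a log2 difference of -4.58 ± 0.14 (adjusted p = 2.7e-07), and 1.99% of tested genes had a smaller p. *Cdk1*, the partner of the B-type cyclins, had 17.7, 18.4 and 19.1 CPM against 58.0 and 59.2 CPM, a log2 difference of -1.64 ± 0.11 (adjusted p = 8.55e-06). *Cdk1* and its cyclins therefore moved in opposite directions between the cell types. *Aurkb*, the catalytic subunit of the chromosomal passenger complex, had 5.20, 4.67 and 3.71 CPM against 17.6 and 19.4 CPM, a log2 difference of -2.0 ± 0.18 (adjusted p = 4.34e-05). *Aurkc*, its germ-cell paralogue, had 15.3, 17.6 and 16.0 CPM against 28.6 and 31.1 CPM, a smaller log2 difference of -0.84 ± 0.13 (adjusted p = 0.000732).

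The activators of *Cdk1* went with the cyclins. *Cdc25c* had 29.7, 27.5 and 27.5 CPM in WT round spermatids and 3.65 and 3.97 CPM in WT spermatocytes, the largest rise of the 10 at a log2 difference of 2.92 ± 0.14 (adjusted p = 1.83e-06). *Plk1*, a kinase of spindle assembly that also acts on *Cdc25c*, had 340, 336 and 270 CPM against 102 and 109 CPM, a log2 difference of 1.61 ± 0.13 (adjusted p = 2.26e-05). In BORIS KO the corresponding log2 differences were 3.09 ± 0.22 for *Cdc25c*, 1.49 ± 0.12 for *Plk1*, 2.31 ± 0.10 for *Ccnb1*, 0.82 ± 0.05 for *Ccnb2*, 1.52 ± 0.13 for *Ccna2* and 0.50 ± 0.10 for *Ccna1*. The genes lower in round spermatids had -3.80 ± 0.08 for *Cdk2*, -1.57 ± 0.07 for *Cdk1*, -1.39 ± 0.11 for *Aurkb* and -1.0 ± 0.07 for *Aurkc*.

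**Figure D2:**
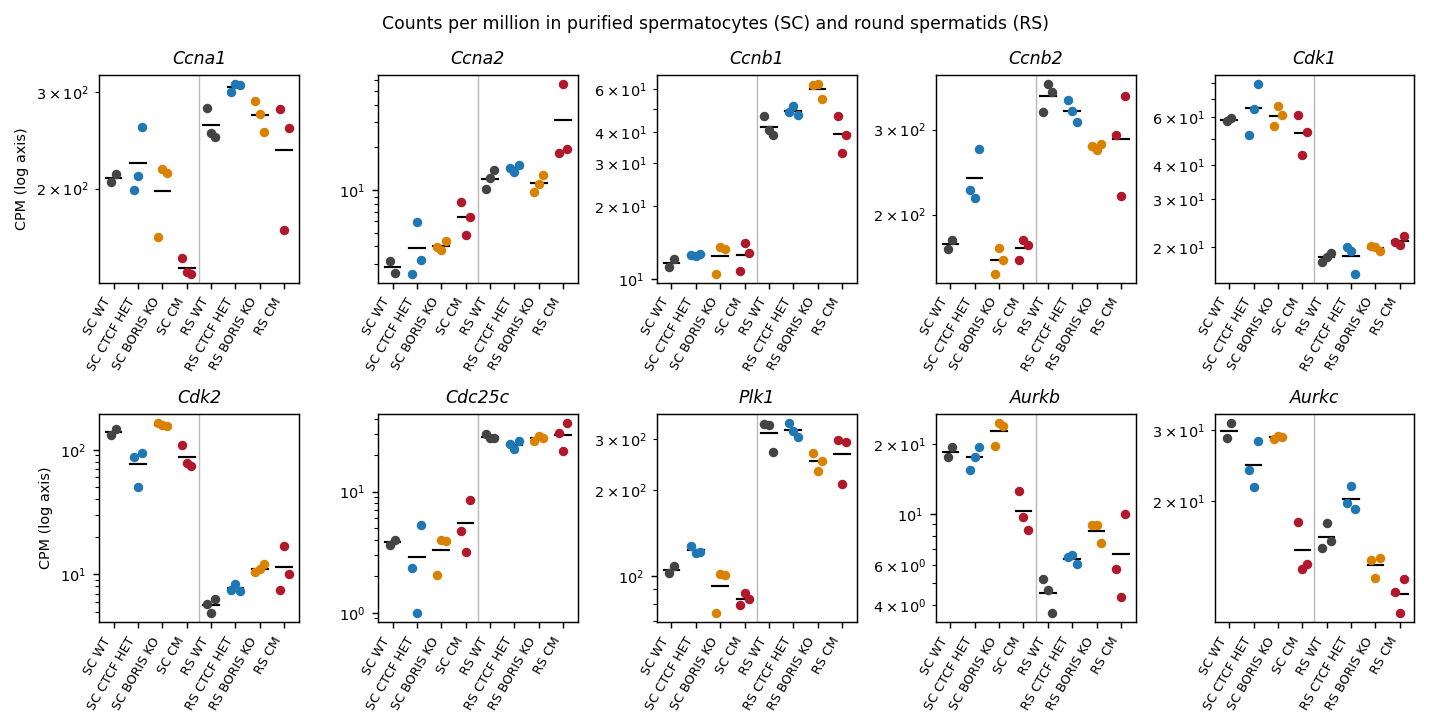
CPM (log axis) of each gene in every purified-cell library, spermatocytes (SC) left and round spermatids (RS) right of the grey line, with 1 point per library, colours for genotypes and a black bar at each group mean. Cdk1, Cdk2, Aurkb and Aurkc have their highest points among spermatocytes, and Ccna2 has a single CM round spermatid library at 55.9 CPM.

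**Figure D3:**
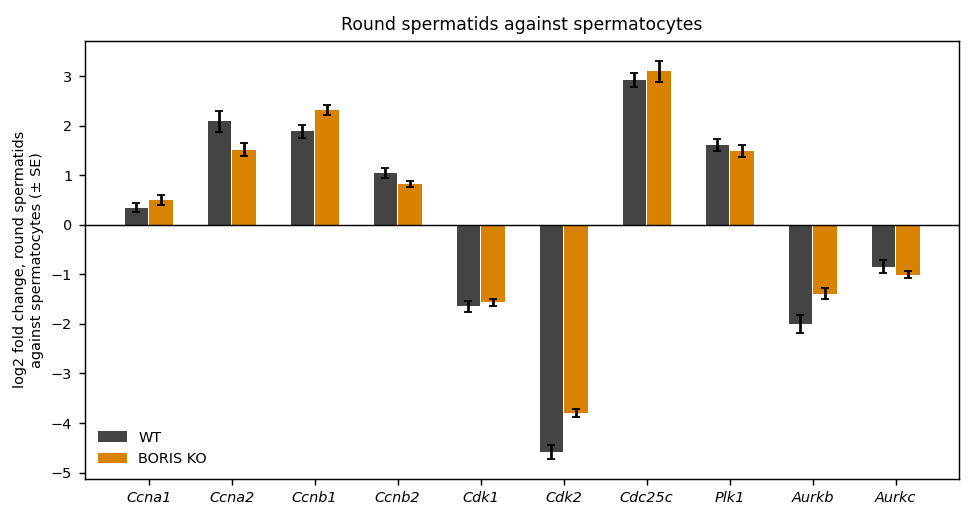
The log2 fold change of round spermatids against spermatocytes for each gene (bars, with SE) in WT and in BORIS KO. The direction is the same in both genotypes for all 10 genes, from -4.58 for Cdk2 to 2.92 for Cdc25c in WT.

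Other regulators of the same pathway, 55 genes in 5 lists, were counted in the same WT comparison, and 54 of them were tested. Of these, 17 were called higher and 26 lower in round spermatids, where 70.0% of all tested genes were called. Among all 16052 tested genes 5740 were called higher and 5497 lower, so the counts by list below are a description only. Spindle checkpoint, APC/C and separase genes were 2 higher and 8 lower of 13, and the lower ones with the largest differences were *Fbxo43* (-3.60 ± 0.10 log2), an inhibitor of the APC/C in meiosis, and *Mad2l1* (-2.78 ± 0.18). CDK partners and activators were 6 higher and 8 lower of 17. Here *Ccnd3*, a D-type cyclin, had the largest rise at 5.30 ± 0.32, and *Cks2*, a CDK-binding subunit needed in meiosis, fell by 5.18 on the log2 scale. The CDK inhibitors were 3 higher and 3 lower of 9, with *Wee1*, the kinase that opposes *Cdc25c*, higher by 1.83 ± 0.11 and *Cdkn2d* lower, from 1.25 to 0.170 CPM. Among 8 tested passenger complex, Aurora and Polo genes 2 were higher and 4 lower, with *Incenp*, the scaffold of *Aurkb* and *Aurkc*, at 0.80 ± 0.15 and *Cdca8* at -1.94 ± 0.10. Of 7 E2F, MYB and FOXM1 genes 4 were higher and 3 lower, with *E2f1* at 3.61 ± 0.49 and *Lin52* at -3.75 ± 0.14. *E2f1* counted little RNA, at 1.27 and 0.106 CPM. Beside the median of all tested genes, 0.02, the median of the 54 was -0.57 on the log2 scale.

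Over all 23 purified-cell libraries the members fell along the same axis, as a description that mostly carries the difference of cell type. *Ccnb1* and *Cdk1* had r = -0.953 (Pearson, log2 CPM, across libraries of shared groups), and *Cdk2* and *Plk1* r = -0.968. *Cdk1* and *Cdk2* ran together at r = 0.964. The genes most like each member among 17313 were *Spata21* (r = 0.986) and *1700015E13Rik* (0.985) for *Ccnb1*, and *Gtf2a1l* and *Dnajb14* (both 0.973) for *Ccnb2*. *Hnrnpa0* (0.985) and *D4Wsu53e* (0.984) came closest to *Cdk1*, and *Pcbp1* (0.993) and *Hnrnpl* (0.992) to *Cdk2*. For *Cdc25c* these were *Rfx3* (0.979) and *Lhx2* (0.975), and for *Plk1* *Fam46c* (0.989) and *4930562C15Rik* (0.984). *Ccna1* had *Tcte1* (0.938) and *Pcdhga12* (0.930), *Ccna2* had *Prkci* (0.955) and *Hspd1* (0.95), *Aurkb* had *Zfp956* (0.962) and *Klhl18* (0.952), and *Aurkc* had *Capzb* (0.927) and *Dnm1* (0.916).

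In whole testis each mutant was set against WT for the 10 genes, in 3 comparisons that share the WT libraries. In CM 9 of the 10 had a lower estimate than in WT (8 of 10 without CM replicate 1). In this fit, without the replicate block given below, *Plk1* was the one called, where 25.2% of all tested genes, 4135, were called. That number rested on single libraries and was 11 without WT replicate 2, 3 without WT replicate 3 and 4 without CM replicate 3. *Plk1* had 106, 85.6 and 60.6 CPM in CM against 170, 136 and 148 CPM in WT, a log2 difference of -0.89 ± 0.25 (adjusted p = 0.0332). All CM values of *Plk1* lay below all WT values. The adjusted p was 0.0862 to 0.0974 when any 1 WT library was left out, and 0.0651 and 0.109 without CM replicate 2 or 3. The median log2 difference was -0.61 over the 10 genes and 0.00 over all tested genes.

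In 6 of the 10 genes all CM whole testis values lay below all WT values, as in 21.5% of all genes, namely *Ccna1*, *Ccnb1*, *Ccnb2*, *Cdc25c*, *Plk1* and *Aurkc*. *Ccna1* had 126, 168 and 122 CPM in CM against 245, 197 and 217 CPM in WT (-0.69 ± 0.23 log2, adjusted p = 0.0582), and *Ccnb2* had 54.4, 123 and 98.6 against 132, 166 and 176 CPM (-0.82 ± 0.33, adjusted p = 0.0996). The CM library of replicate 1 was the lowest for *Ccnb1*, at 15.9 CPM against 65.3 and 59.9 in the other CM libraries and 76.7 to 92.6 in WT. *Cdc25c* had 19.8, 23.4 and 18.9 CPM in CM against 34.1, 28.4 and 26.0 in WT (-0.54 ± 0.22, adjusted p = 0.105). *Aurkc* had 7.75, 15.5 and 11.7 against 18.6, 16.8 and 19.3 CPM. *Cdk1*, *Ccna2* and *Aurkb* overlapped between the genotypes, and *Cdk2* was the one gene with a positive estimate, at 57.7, 68.7 and 63.8 CPM against 59.2, 53.3 and 52.6.

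Replicate numbers paired the whole testis libraries, and with the replicate number as a block 5 of the 10 genes were called lower in CM, where 43.0% of all genes were called in either direction. These were *Plk1* (adjusted p = 0.00677), *Ccnb2* (0.00854), *Ccnb1* (0.0237), *Ccna1* (0.0286) and *Aurkc* (0.0407). DESeq2 called 2, *Plk1* and *Ccna1*, and 33.1% of all genes. The cell type markers differed in the same libraries. The summed level of 5 Leydig markers was 1735 to 3383 CPM in CM and 342 to 533 CPM in WT, that of 7 round spermatid markers 693 to 1183 against 1972 to 2059 CPM, and that of 8 spermatocyte markers 769 to 952 against 862 to 1014 CPM. The elongating spermatid sum was 4582 to 13650 CPM in CM and 17790 to 25710 CPM in WT. Of these, 4 of 5 Leydig and 4 of 7 round spermatid markers were called, higher and lower respectively. The part of this difference in cell makeup in the levels of the 10 genes was not tested.

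**Figure D4:**
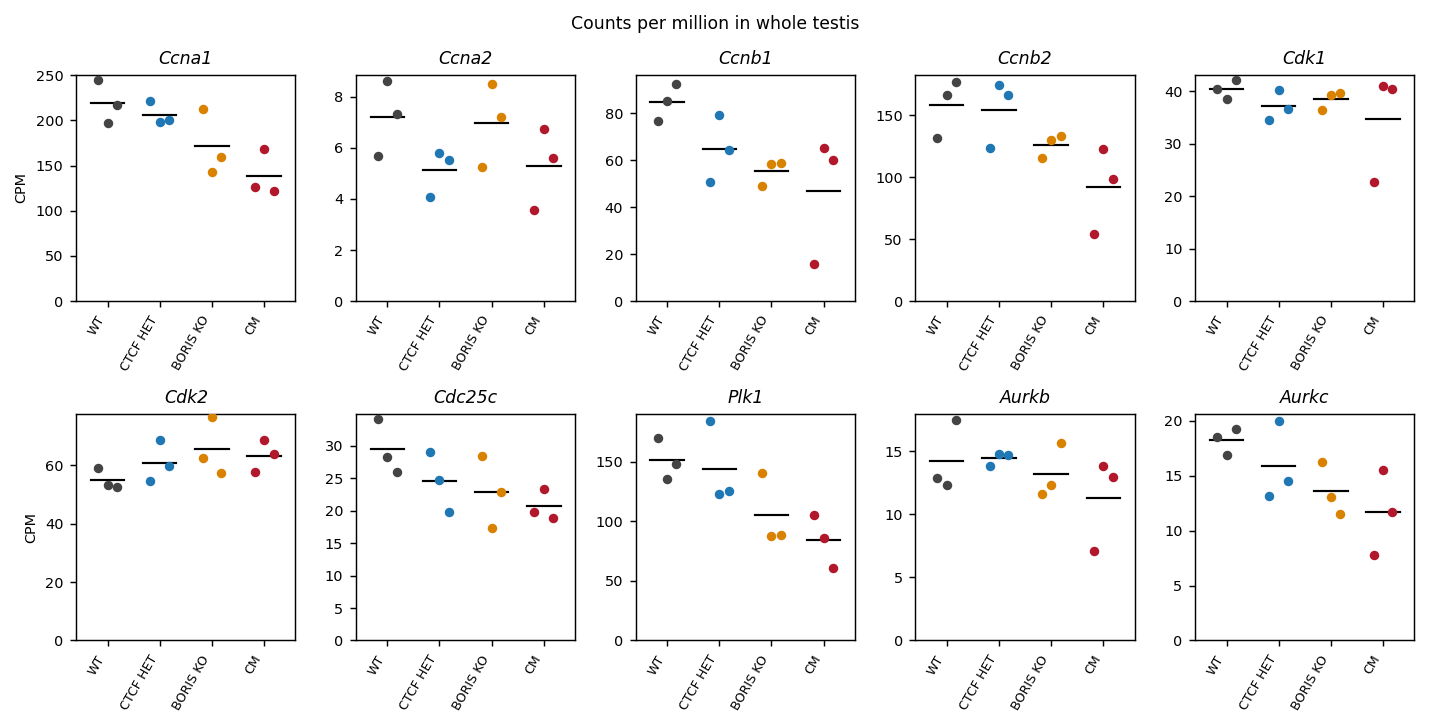
CPM (axis from 0) of each gene in the 12 whole testis libraries, 1 point per library, with a black bar at each genotype mean. In 6 genes every CM point lies below every WT point, as in 21.5% of all genes, and Cdk2 is not among them.

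The single mutants had fewer calls in whole testis, while most estimates were below 0 there too. For BORIS KO 9 of the 10 were below 0, with a median of -0.35 on the log2 scale beside 0.03 over all genes. For CTCF HET 8 of the 10 were below 0, with a median of -0.09 beside 0.01. In BORIS KO edgeR called 0 of the 10, where 0.0551% of all genes were called, and 3 had an unadjusted p under 0.05 (16.6% of all genes). *Ccnb1* had 49.0, 58.4 and 58.6 CPM against 76.7, 85.3 and 92.6 in WT (-0.63 ± 0.19, adjusted p = 0.214), without overlap. All BORIS KO values lay below all WT values in 2 of the 10 genes and in 8.93% of all genes. *Plk1* had 140, 87.3 and 88.9 CPM (-0.54 ± 0.19, adjusted p = 0.240), and *Aurkc* 16.2, 13.0 and 11.5 CPM (-0.44 ± 0.18, adjusted p = 0.283). With the replicate block *Ccnb1* (adjusted p = 0.0238) and *Plk1* (0.0387) were called lower, where 6.59% of all genes were called, and DESeq2 called 0 of 10 and 2.36% of all genes. In CTCF HET 0 of 10 were called by edgeR and by DESeq2, 0 had an unadjusted p under 0.05, and 0.00621% of all genes were called. CM differed from CTCF HET in 0 of 10 genes by edgeR, 3 at an unadjusted p under 0.05 (34.8% of all genes) and 1 by DESeq2 (24.3%), where edgeR called 15.5% of all genes. *Plk1* had the smallest p of these (-0.83 ± 0.29, adjusted p = 0.0757), and with the replicate block *Plk1*, *Ccnb2* and *Ccna1* were called lower (adjusted p = 0.00383, 0.00397 and 0.0254), where 43.0% of all genes were called. Against BORIS KO 0 of 10 were called by edgeR and DESeq2, 0 at an unadjusted p under 0.05, and 0.00600% of all genes were called, while all 10 estimates were below 0, and 5 of them above 0 without CM replicate 1.

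In spermatocytes labelled CM edgeR called 0 of the 10 genes, where 0.604% of all genes were called. An unadjusted p under 0.05 was found for 6 of 10, beside 29.8% of all genes, and DESeq2 called 5 of 10, beside 21.9% of all genes. The germ-line paralogues *Aurkc* and *Ccna1* had the smallest p values of the 10. *Aurkc* had 17.7, 13.6 and 14.0 CPM in CM against 28.6 and 31.1 CPM in WT (-0.94 ± 0.17 log2, adjusted p = 0.058 by edgeR and 3.26e-05 by DESeq2). *Ccna1* had 149, 140 and 140 CPM against 206 and 213 CPM (-0.50 ± 0.09, adjusted p = 0.058 and 6.91e-05). For both genes the CM values lay below the WT values, and 1.76% and 1.47% of tested genes had a smaller p.

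The same held with lesser weight for *Aurkb*, at 12.6, 9.70 and 8.48 CPM in CM against 17.6 and 19.4 in WT (-0.81 ± 0.20, adjusted p = 0.0771 by edgeR and 0.00473 by DESeq2). *Cdk2* had 109, 78.0 and 73.9 CPM against 132 and 146 CPM (-0.63 ± 0.18, adjusted p = 0.0855 and 0.00974), and *Plk1* 79.1, 87.4 and 83.5 against 102 and 109 CPM (-0.29 ± 0.10, adjusted p = 0.121 by edgeR). *Ccna2* went the other way, with 8.23, 4.78 and 6.46 CPM against 3.15 and 2.59 CPM (1.22 ± 0.31, adjusted p = 0.0761 and 0.00336). *Ccnb1*, *Ccnb2*, *Cdk1* and *Cdc25c* overlapped between CM and WT. Without CM replicate 1, the library with 85.9 CPM of *Ctcf*, edgeR called 6 of the 10, these 5 lower genes and *Ccna2*, and 38.9% of all genes, so that the gain was not particular to the 10. All CM values lay below all WT values in 5 of the 10 genes and in 31.5% of all genes. The summed level of 9 spermatogonial markers was 12.3 to 16.6 CPM in CM and 6.62 and 6.68 CPM in WT, and its part in the level of *Ccna2* was not tested. Exons of *Ccna2* share 512 bases with *Exosc9* on the opposite strand, and counting by strand is not given in the sources used here.

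In BORIS KO spermatocytes 3 of the 10 were called, all higher, where 57.2% of all genes were called. *Ccna2* had 3.96, 3.80 and 4.34 CPM against 3.15 and 2.59 CPM in WT (0.48 ± 0.14, adjusted p = 0.00918). The other two changed little, *Cdk2* from 132 and 146 CPM to between 155 and 163 CPM (0.19 ± 0.06, adjusted p = 0.0216) and *Aurkb* by 0.30 ± 0.10 (adjusted p = 0.0208). None of the 3 was called with all genotypes in one fit (14.5% of all genes), with adjusted p from 0.419 to 0.788. The count was 1 without either WT library or BORIS KO replicate 2, and 2 without BORIS KO replicate 3, while 39.9 to 52.2% of all genes were called. In CTCF HET spermatocytes, the libraries with few genes detected and without lower *Ctcf*, 2 of 10 were called, where 15.5% of all genes were called. *Ccnb2* had 225, 216 and 274 CPM against 170 and 177 in WT (0.46 ± 0.11, adjusted p = 0.0344), and *Cdk2* had 87.5, 50.5 and 93.8 against 132 and 146 CPM (-0.85 ± 0.23, adjusted p = 0.0491). Neither passed without the low-count filter, at adjusted p of 0.0716 and 0.106, and the count of calls was 0 without CTCF HET replicate 1 or 2 and 1 without CTCF HET replicate 3 or either WT library. Of all genes, 6.56% and 0.00730% were called without CTCF HET replicate 1 or 2, and 5.84 to 22.7% in the other cases.

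In BORIS KO round spermatids 5 of the 10 genes were called, 3 higher and 2 lower, where 55.8% of all genes were called, so that the count is that of genes at large and only sizes are described. *Cdk2* had 10.3 to 12.0 CPM against 5.82, 4.90 and 6.34 CPM in WT (log2 1.00 ± 0.15, adjusted p = 0.000458). *Aurkb* had 8.98, 8.90 and 7.46 CPM against 5.20, 4.67 and 3.71 CPM (0.94 ± 0.18, adjusted p = 0.00194), and *Ccnb1* had 62.3, 63.1 and 54.7 against 46.8, 40.9 and 38.9 CPM (0.55 ± 0.12, adjusted p = 0.0035). These 3 genes had no overlap between the genotypes. Of the 10 genes, 4 had all values above WT and 3 all below, beside 30.6% and 33.6% of all genes. *Ccnb2* was slightly lower at 278, 272 and 281 CPM (-0.31 ± 0.08, adjusted p = 0.0112), and *Plk1* at 269, 233 and 253 CPM (-0.29 ± 0.11, adjusted p = 0.0492). The call of *Plk1* did not hold under RLE scaling (adjusted p = 0.0802) or in DESeq2 (0.0987), which called 4 of 10 and 57.3% of all genes. Without BORIS KO replicate 2 the calls were 3 of 10 and 43.7% of all genes. The summed spermatocyte markers were lower in these libraries, at 1576 to 1807 CPM against 4182 to 4806 CPM in WT, with 5 of 8 called lower and 2 called higher, and their part in the levels of *Cdk2* and *Aurkb* was not tested.

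In CTCF HET round spermatids edgeR called 0 of the 10, where 22.3% of all genes were called. An unadjusted p under 0.05 was found for 4 of 10, beside 38.2% of all genes, and DESeq2 called 3 of 10, beside 29.4% of all genes. The estimates of these 4 were all above 0, with *Aurkb* at 6.51, 6.62 and 6.06 CPM (0.52 ± 0.17, adjusted p = 0.0551 by edgeR), *Cdk2* at 7.48, 8.39 and 7.36 CPM (0.46 ± 0.16, adjusted p = 0.0621), *Aurkc* (0.33 ± 0.12, adjusted p = 0.0813) and *Ccna1* (0.25 ± 0.10, adjusted p = 0.0836). None of these 4 overlapped with WT, and 5 of the 10 genes had all values above WT, beside 18.7% of all genes. Without WT replicate 1 the count was 4, where 42.3% of all genes were called.

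In round spermatids labelled CM edgeR called 0 of the 10, where 0.00654% of all genes were called. An unadjusted p under 0.05 was found for 2 of 10, beside 20.5% of all genes, and DESeq2 called 1 of 10, beside 11.7% of all genes. The 2 were *Ccna2* and *Cdk2*. *Ccna2* had 18.2, 55.9 and 19.4 CPM in CM against 10.1, 12.1 and 13.8 CPM in WT (1.5 ± 0.49 log2, adjusted p = 0.179 by edgeR and 0.0228 by DESeq2), and *Cdk2* had 7.43, 16.9 and 10.1 against 5.82, 4.90 and 6.34 CPM (1.13 ± 0.40, adjusted p = 0.186 by edgeR). All CM values lay above all WT values in 3 of the 10 genes, these 2 and *Cdk1*, beside 11.4% of all genes. In 1 of the 10, *Aurkc*, all lay below, beside 17.8% of all genes. For both *Ccna2* and *Cdk2* the highest value came from CM replicate 2. Without that library the log2 differences were 0.67 for *Ccna2* and 0.65 for *Cdk2* (adjusted p = 0.166 and 0.233). In CM replicate 2 the summed level of 9 spermatogonial markers was 386 CPM, against 39.9 and 73.1 CPM in the other CM libraries and 25.4 to 32.9 CPM in WT, and that of 5 S-phase genes was 1033 CPM, against 438 and 541 CPM in CM and 377 to 434 CPM in WT. Their part in the level of *Ccna2* was not tested. The sum of 7 round spermatid markers was 713 to 1044 CPM in CM and 1524 to 1607 CPM in WT. That of 8 spermatocyte markers was 3899 to 6720 CPM in CM and 4182 to 4806 CPM in WT, and its part in the level of *Cdk2* was not tested.

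Whether CM acted differently on the 10 genes in the 2 purified cell types was tested as an interaction. No gene of the 10 was called by edgeR, where 3.51% of all genes were called. An unadjusted p under 0.05 was found for 2 of 10, beside 15.2% of all genes, and DESeq2 called 1 of 10, beside 8.54%. The smallest p belonged to *Cdk2*, for which the CM effect was more positive in round spermatids than in spermatocytes by 1.67 ± 0.42 on the log2 scale (adjusted p = 0.0512 by edgeR and 0.0129 by DESeq2). *Aurkb* followed at 1.39 ± 0.48 (adjusted p = 0.179). *Cdk2* was called when CM round spermatid replicate 1 (1.91, adjusted p = 0.0217), CM round spermatid replicate 2 (1.25, 0.0414) or CM spermatocyte replicate 1 (1.92, 0.0313) was left out, with 3.74 to 5.89% of all genes called. The median estimate was 0.26 over the 10 genes and 0.10 over all genes. In the same fit 5 of 7 round spermatid and 2 of 6 elongating spermatid markers were called lower, beside 3.51% of all genes called. Of 8 spermatocyte markers 0 were called. The part of cell makeup in the estimate of *Cdk2* was not tested.

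**Figure D5:**
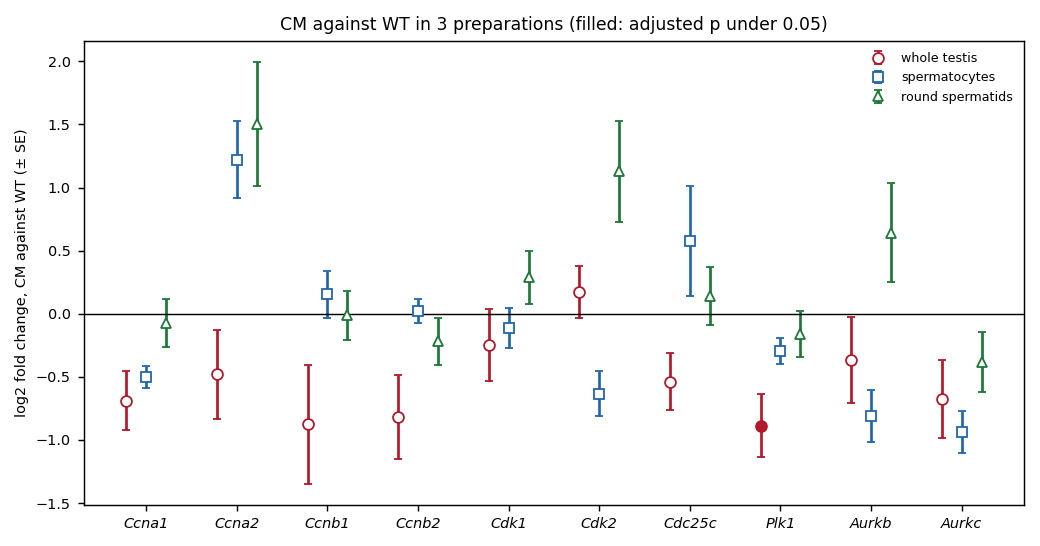
The log2 fold change of CM against WT for each gene (points, with SE) in whole testis (circles), spermatocytes (squares) and round spermatids (triangles), filled where the adjusted p was under 0.05. In these fits, without a replicate block, only the circle of Plk1 is filled. Whole testis estimates are below 0 for all genes but Cdk2 (and Cdk1 without CM replicate 1). Cdk2 and Aurkb lie below 0 in spermatocytes and above 0 in round spermatids.

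Of the 55 other pathway genes, 54 were tested in CM whole testis, with 2 called higher and 2 lower, fewer in proportion than the 25.2% of all genes. The higher ones were *Ccnd2* (17.8 ± 9.22 against 2.16 ± 0.160 CPM, log2 2.99 ± 0.43, adjusted p = 0.0151), a D-type cyclin of spermatogonia and somatic cells, and *Cdk4*, its kinase partner (29.8 ± 7.40 against 13.1 ± 3.45 CPM, 1.15 ± 0.28, adjusted p = 0.0229). The lower ones were *Ccnd3* (-0.91 ± 0.26, adjusted p = 0.0332) and *Wee1* (-0.67 ± 0.21, adjusted p = 0.0468). All 4 belong to the lists of CDK partners and CDK inhibitors. The median of the 54 was -0.28 on the log2 scale, beside -0.61 for the 10 genes.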

How the data were processed

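RNA was sequenced from 35 libraries of germ-cell-enriched whole testis, round spermatids and spermatocytes, and peaks were listed from whole testis. The paper describes the whole testis libraries of RNA as independent preparations from pooled mice, and those of purified cells as replicates. The authors deposited raw counts per gene, 1 table for whole testis and 1 for the purified cells, with column names matching the sample labels. The submitters' processing notes name Bowtie, Bowtie2, TopHat2, STAR, Cufflinks 2.0.0 and DESeq2 and the mm9 build; which of them counted the reads, with which annotation and on which strand, is not given in the sources used here. The authors deposited CTCF and BORIS peaks with a height as signal, and Pol2 and H3K4me3 peaks with a MACS score. Counts depend on the depth and on strand handling where genes overlap.

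Groups were taken from the labels. Each comparison was fitted with edgeR 4.0.16 in R 4.3.3 (filterByExpr with a minimum count of 10, TMM scaling, robust quasi-likelihood F test) on the libraries of its own groups, with Benjamini-Hochberg adjustment over all genes tested, and a gene was called at an adjusted p under 0.05. The SE is that of the fitted log2 difference. CPM per kb divides by the longest protein-coding transcript of GENCODE vM1. Alternatives were RLE scaling, DESeq2 1.42.0, no low-count filter, all groups in one fit, a replicate block, an adjusted p under 0.001 with a fold change over 2, and leaving out each library. The fits were tested on simulated data.

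The 10 members, the pathway lists and the marker lists were chosen with earlier results of these data known. All 10 members were named, and of each pathway list at most 4 called genes with the largest log2 difference were eligible to be named, of which some are given. Same-numbered libraries deviated together in whole testis, in 18 of 18 pairs (r from 0.12 to 0.63), and in 4 of 18 pairs of round spermatids and 1 of 15 of spermatocytes, so numbers were read as pairing in whole testis alone. Promoter sequences were read from mm9. The ChIP reads were not analysed here.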

Additional observations from a re-analysis of the deposited data

Results flagged for a closer look

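In 4 cases every library of a mutant lay on one side of WT in one preparation and every library on the other side in another preparation. The share of all genes with such opposite sides was not counted, and lying on 1 side was common. In CTCF HET 18.7% of all genes lay above WT in round spermatids and 32.7% below in spermatocytes. For CM these shares were 11.4% and 31.5%. In BORIS KO 8.93% lay below WT in whole testis and 30.6% above in round spermatids. For *Cdk2* in CTCF HET the fitted log2 difference from WT in round spermatids minus that in spermatocytes was 1.31, each from its own fit. Its values lay above WT in round spermatids and below WT in spermatocytes. *Aurkc* in CTCF HET did the same at 0.61. *Ccnb1* in BORIS KO was below WT in whole testis and above WT in round spermatids, a difference of -1.18 between tables that were normalized separately. These 3 differences were not tested.

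For *Cdk2* in libraries labelled CM the same quantity was 1.76, above WT in round spermatids and below WT in spermatocytes. Here the difference was tested as an interaction, which gave 1.67 ± 0.42 on the log2 scale with an adjusted p of 0.0512 by edgeR. Of 7 round spermatid markers 5 were called lower in that fit, and the part of cell makeup was not tested. The libraries labelled CM in purified cells, and those of CTCF HET spermatocytes, did not have lower *Ctcf* than WT as a group. Groups of 3 libraries were not searched for single libraries that stand apart.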

How the results depend on the processing

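Of 646 alternative values for the 55 log2 differences with an unadjusted p under 0.05, a choice that favours a stable sign, 0 changed direction, 545 stayed on the same side of the threshold, 56 lost the call and 45 gained it. Among the other 85 differences, 31 changed sign under at least 1 alternative, in 67 of 1034 values. The numbers of members called moved as follows, and the share of all genes called moved with them (in CM spermatocytes, 0.604% by edgeR, 21.9% by DESeq2 and 38.9% without CM replicate 1). DESeq2 called 2 in CM whole testis, 3 in CTCF HET round spermatids, 1 in CM round spermatids, 5 in CM spermatocytes, 1 for CM against CTCF HET and 1 for the interaction. All groups in one fit gave 3 in CM whole testis, 3 in BORIS KO and 2 in CM round spermatids, 0 in BORIS KO and 3 in CM spermatocytes, and 2 for CM against CTCF HET. RLE scaling gave 2 in CM whole testis and 1 in CTCF HET spermatocytes. Without the low-count filter there were 3 in BORIS KO round spermatids, 0 in CTCF HET spermatocytes and 1 for the interaction, and the median of all genes in CTCF HET spermatocytes moved to -0.29 on the log2 scale. At an adjusted p under 0.001 and a fold change over 2 there were 0 in CM whole testis, BORIS KO round spermatids, CTCF HET spermatocytes and BORIS KO spermatocytes.

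With the replicate block, in whole testis, 2 were called in BORIS KO, 5 in CM and 3 for CM against CTCF HET. In purified cells, where the numbers did not pair the libraries, the replicate block gave 5 in BORIS KO round spermatids, 2 in CTCF HET and 4 in BORIS KO spermatocytes, and 9 in WT round spermatids against spermatocytes, where *Ccna1* was lost (adjusted p = 0.0678). The shares of all genes called in these block fits of purified cells are not given here.

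Leaving out 1 library gave 0 to 1 calls in CM whole testis. These ranges count members only and stand without the share of all genes called in each fit. For round spermatids the range was 0 to 4 with CTCF HET, 3 to 5 with BORIS KO and 0 to 0 with CM. For spermatocytes it was 0 to 1 with CTCF HET, 1 to 4 with BORIS KO and 0 to 6 with CM. CM against CTCF HET and the interaction each gave 0 to 1, and WT round spermatids against spermatocytes 9 to 10. Among the upper 50% of peaks by height, 1 member had a CTCF promoter peak in WT, beside 12.6% of all genes. By the same rule 2 had a BORIS promoter peak, beside 7.88% of all genes. With 2 WT spermatocyte libraries, leaving 1 out assumes that the lone library varies like the other group. Peak lists hold no replicate spread.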
